A study of Homo sapiens with 12 samples.

Results

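The genes described here are 10 genes that are commonly read as a sign of the epithelial or the mesenchymal state of a cell: CDH1, CDH2, VIM, FN1, KRT18, KRT19, ZEB1, ZEB2, SNAI2 and TWIST1. They were taken from the raw gene count matrix by symbol, and make up 10 of its 45478 genes. All but 1 are cadherins, intermediate filament genes or transcription factors of the epithelial-mesenchymal transition (EMT), and FN1 encodes the matrix protein fibronectin. The rule that lists them uses symbols and no measured value, and the list was drawn up with earlier results of these data known. A total of 9 passed the filter on low counts and could be tested, while TWIST1 had no count in any library.

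Epithelial cells hold together through adherens junctions, tight junctions and desmosomes, and carry a scaffold of keratins. In EMT, transcription factors of the ZEB, SNAI and TWIST families bind E-boxes in the promoters of junction genes such as CDH1 and repress them, while N-cadherin, vimentin and fibronectin become more abundant. Proximal tubule cells, from which clear cell renal cell carcinoma (ccRCC) is thought to arise, are unusual among epithelia because they express N-cadherin and little E-cadherin, and cultured ccRCC lines are usually rich in vimentin.

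The study sequenced mRNA of 786-O and A498 cells, human ccRCC lines that lack functional VHL, the tumor suppressor that marks hypoxia-inducible factors for degradation, with 3 libraries in each of 4 groups. Parental 786-O and parental A498 were kept without drug. Sunitinib-resistant 786-O (resistant 786-O below) had been selected in 4 µM sunitinib, an inhibitor of VEGF receptors and other receptor tyrosine kinases. The libraries labelled as sunitinib-resistant A498 (resistant A498 below) came from cells selected in 2 µM. Selection of each lasted 4 months or more than 20 passages, and both lines were cultured in the same base medium. The resistant cells stayed in sunitinib throughout selection, and the paper does not say whether the drug was present when RNA was taken. The name of every library holds 'veh', which the paper does not explain. Resistance and drug exposure at harvest therefore cannot be told apart. Each resistant group is a single selected culture, the sources used here do not say whether its 3 libraries came from separate cultures, and p-values therefore measure only the spread between libraries, which may be technical. The labels give every group its own batch, and batch and group cannot be told apart in any comparison below.

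Library depth ranged from 20042519 to 47972092 counts, and levels are given as CPM, computed with TMM-corrected library sizes. Between libraries of a group, the median coefficient of variation was 2.70% in parental 786-O, 7.87% in resistant 786-O, 3.78% in parental A498 and 3.20% in resistant A498. PAX8, a kidney lineage factor, had a mean of 200 to 312 CPM in the 4 groups, and VEGFA, a target of hypoxia-inducible factors, 178 to 252 CPM. CA9, another such target, had 54, 23 and 34 counts in parental A498. It had 2, 0 and 0 counts in parental 786-O, none in resistant 786-O, and 1, 0 and 0 in resistant A498. Of the other renal markers listed, group means were 15.0 to 26.4 CPM for PAX2, 30.3 to 103 for EGLN3 and 109 to 168 for NNMT. NDUFA4L2 was low in every group, at 0.474 to 0.573 CPM. Summed over 10 T cell markers, the level was at most 0.656 CPM in any library, and 4 to 7 of the 10 genes were at 0 in every library of a group. The libraries labelled resistant A498 went against their label. Over the 19929 genes tested, their log2 CPM had a median correlation of 0.870 with the parental A498 libraries, 0.951 with parental 786-O and 0.982 with resistant 786-O. A set of 62 genes had at least 10 CPM in parental A498 but 3 counts or fewer in all parental 786-O libraries, and their median level in resistant A498 was 0.362% of the parental A498 value. For that reason the resistant A498 values below are set against parental 786-O as well as against parental A498.

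The first question was which of the 10 genes differed between resistant and parental cells. In resistant 786-O, CDH1 was higher than in parental 786-O, from almost no counts to about 2 CPM, and ZEB2 and SNAI2 were higher by 1.18-fold and 1.45-fold. CDH2, VIM, FN1, KRT18, KRT19 and ZEB1 were lower, with FN1 falling the most, 3.26-fold. In resistant compared with parental A498, CDH1, FN1, KRT19, SNAI2, ZEB2 and CDH2 were higher and VIM and KRT18 lower, while ZEB1 was not called. The direction of ZEB1 in the first comparison and of CDH2 in the second turned when trends with GC content and gene length were removed. Both markers of the epithelial state (CDH1) and of the mesenchymal state (SNAI2, ZEB2) were thus among the genes that were higher in both resistant groups than in their labelled parents, and both kinds (KRT18, VIM) were among those that were lower. For SNAI2, resistant A498 was not called against parental 786-O (log2 fold change -0.05, edgeR adjusted p = 0.79). Its log2 fold change in resistant 786-O fell from 0.54 to 0.22 without replicate 2. Levels are of RNA from whole cultures, in which fewer cells of a type and less RNA per cell cannot be told apart.

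Of the 9 genes tested, 9 were called at an adjusted p under 0.05 in resistant compared with parental 786-O (3 higher, 6 lower), where 68.5% of all genes tested were called, 35.0% higher and 33.5% lower. Their median log2 fold change was -0.31, beside 0.03 for all genes. In resistant compared with parental A498, 8 of 9 were called (6 higher, 2 lower), where 72.7% of all genes were, 36.3% higher and 36.4% lower, and the median log2 fold change was 1.09, beside 0.00 for all genes. Compared with parental 786-O, resistant A498 gave 8 calls (2 higher, 6 lower) with a background of 63.6%, 31.6% higher and 32.1% lower, and a median of -0.46. The libraries of the 2 groups did not overlap for 9, 8 and 8 of the 9 genes in these comparisons, and for 68.9%, 78.5% and 73.4% of all genes tested. With most of all genes called, the number of calls is not a result about these 9 genes, and the sizes and directions are described one by one. CDH1 passed the filter only through the resistant groups, so its direction in these comparisons was fixed by the filter. Since the comparisons with parental 786-O share the parental 786-O libraries, their values are given side by side and were not counted as repeats of each other.

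**Figure D1:**
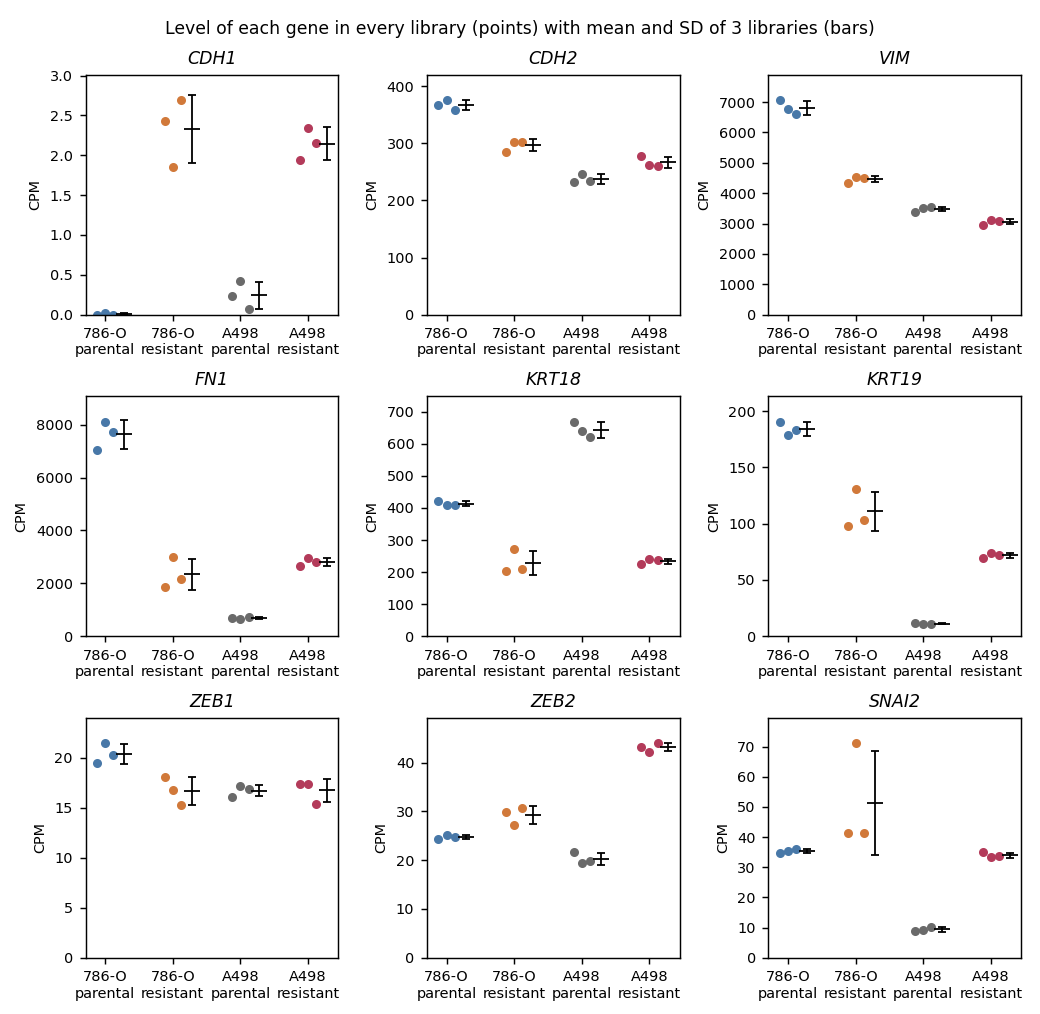
Level in CPM (linear axes, each from 0) of the 9 genes with counts in the 12 libraries; points are libraries, the horizontal mark and bar beside them the mean and SD of 3 libraries. CDH1 was near 0 in parental 786-O and about 2 CPM in both resistant groups, FN1 and KRT19 were highest in parental 786-O and lowest in parental A498, and 1 library of resistant 786-O stood high for SNAI2.

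CDH1 (chr16:68737292-68835537, plus strand of GRCh38) encodes E-cadherin, the adhesion receptor of epithelial adherens junctions. Its raw counts in the 3 libraries were 0, 1 and 0 in parental 786-O and 119, 81 and 123 in resistant 786-O. In parental A498 they were 8, 9 and 2, and in resistant A498 52, 49 and 55. On the CPM scale these are 0 to 0.0259 in parental 786-O, 1.86 to 2.69 in resistant 786-O, 0.0736 to 0.418 in parental A498 and 1.94 to 2.35 in resistant A498. No library of a parental group reached the level of any resistant library. Since only 1 count was recorded in parental 786-O, the fold is given as a ratio of pooled, depth-corrected counts with an exact 95% interval that covers counting error alone: 284 for resistant over parental 786-O (50.7 to 11260), 259 for resistant A498 over parental 786-O (45.8 to 10300) and 9.32 for resistant over parental A498 (5.78 to 15.9). The adjusted p-values of edgeR were 6.5e-09, 1.7e-08 and 8.2e-07. CDH1 passed the filter only through the resistant groups, where it was high. In these comparisons it could therefore be tested only as higher, and the p-values add no support to that direction. Resistant 786-O and resistant A498 were not called as different (log2 fold change -0.12, 95% interval -0.61 to 0.36, adjusted p = 0.69), and parental A498 was above parental 786-O (adjusted p = 0.00052). The level stayed low in absolute terms in each group, and about 5.71% of the exonic bases of CDH1 are also covered by exons of a gene on the other strand.

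CDH2 (chr18:27932879-28177946, minus strand) encodes N-cadherin, the cadherin of mesenchymal cells and of the proximal tubule. It was measured at 367, 376 and 359 CPM in parental 786-O and at 285, 303 and 302 CPM in resistant 786-O. The values were 232, 247 and 234 CPM in parental A498 and 278, 262 and 261 CPM in resistant A498. The parental 786-O libraries were the highest and the parental A498 libraries the lowest, and neither overlapped with another group. CDH2 fell by 0.31 on the log2 scale (SE 0.05, adjusted p = 2.3e-05) in resistant 786-O and was 0.17 higher in resistant A498 than in parental A498 (SE 0.05, adjusted p = 0.0041). That second call was lost and its sign turned when trends with GC content and gene length were removed (-0.09). Against parental 786-O, resistant A498 was lower by a log2 fold change of -0.46 (SE 0.05, adjusted p = 4.1e-07). Resistant 786-O and resistant A498, neighbours in the order of levels, differed by -0.15 (adjusted p = 0.013), a call that did not survive without resistant A498 replicate 2 (adjusted p = 0.0781) or replicate 3 (adjusted p = 0.0829), or with only these groups fitted (adjusted p = 0.0555).

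Per kb of exon, CDH2 remained far above CDH1 in every group. The ratio of their mean CPM per kb was 698 in parental A498, 90.3 in resistant 786-O and 88 in resistant A498. For parental 786-O no ratio is given because a single count of CDH1 would set it.

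VIM (chr10:17228241-17237593, plus strand) encodes vimentin, the intermediate filament of mesenchymal cells. It was measured at 7058, 6774 and 6611 CPM in parental 786-O and 4345, 4543 and 4497 CPM in resistant 786-O. In parental A498 it stood at 3392, 3515 and 3530 CPM, and in resistant A498 at 2967, 3120 and 3089 CPM. No groups overlapped, and the order parental 786-O, resistant 786-O, parental A498, resistant A498 had a called difference at each step. VIM fell by 0.61 on the log2 scale (SE 0.04, adjusted p = 6.7e-09) in resistant 786-O. Its log2 fold change was -0.19 (SE 0.04, adjusted p = 0.00091) for resistant against parental A498 and -1.16 (SE 0.04, adjusted p = 8.5e-12) for resistant A498 against parental 786-O.

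The antisense gene VIM-AS1 was counted at 22.8% to 37.7% of the VIM count, and a second antisense gene, ENSG00000234961, at 27.1% to 30.6%. Of the exonic bases of VIM, 24.6% are also covered by exons of genes on the other strand. Over 84 noncoding genes that lie almost wholly on the exons of an expressed gene of the other strand, the count density was a median of 2.07 times that of the expressed gene (0.0124 to 9.57). The counts therefore do not separate the strands. VIM-AS1 and ENSG00000234961 cannot be read apart from VIM, ZEB1-AS1 from ZEB1, or ZEB2-AS1 from ZEB2. VIM-AS1 was not called in resistant against parental 786-O (log2 fold change -0.09, adjusted p = 0.32) or in resistant against parental A498 (0.09, adjusted p = 0.31). ZEB1-AS1 had 1.49 to 3.98 CPM and was called in resistant against parental A498 (log2 fold change 0.54, adjusted p = 0.0076) and not in resistant against parental 786-O. ZEB2-AS1, at no more than 0.526 CPM, was 1.74 higher on the log2 scale in resistant A498 than in parental A498 (adjusted p = 0.0019). The difference between the 2 changes was not called for any of the 3 (adjusted p = 0.16 for VIM-AS1, 0.057 for ZEB1-AS1 and 0.071 for ZEB2-AS1).

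FN1 (chr2:215360440-215436073, minus strand) encodes fibronectin, a glycoprotein of the extracellular matrix that mesenchymal cells secrete. Its levels were 7048, 8115 and 7742 CPM in parental 786-O and 1864, 2978 and 2174 CPM in resistant 786-O. The parental A498 libraries held 690, 668 and 725 CPM and the resistant A498 libraries 2643, 2954 and 2805 CPM. The change thus had opposite directions in the 2 labelled pairs of groups, and both resistant groups lay between the 2 parental lines. FN1 fell by 1.71 on the log2 scale (SE 0.12, adjusted p = 1.2e-08) in resistant 786-O and was 2.01 higher (SE 0.12, adjusted p = 1.1e-09) in resistant A498 than in parental A498. Against parental 786-O instead, resistant A498 was lower, with a log2 fold change of -1.45 (SE 0.12, adjusted p = 7.4e-08). Resistant 786-O and resistant A498 were not called as different (0.26, 95% interval 0.01 to 0.51, adjusted p = 0.089). Without resistant 786-O replicate 2, the highest of its group, that difference was called (0.47, adjusted p = 3.99e-09).

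KRT18 (chr12:52948871-52952906, plus strand) encodes a type I keratin of simple epithelia that pairs with keratin 8. It was present at 422, 409 and 408 CPM in parental 786-O and at 203, 271 and 208 CPM in resistant 786-O. Its values were 669, 641 and 621 CPM in parental A498 and 226, 241 and 237 CPM in resistant A498. Both resistant groups were below both parental lines without overlap. The log2 fold change was -0.86 (SE 0.08, adjusted p = 2.7e-07) in resistant against parental 786-O, -1.46 (SE 0.08, adjusted p = 5e-10) in resistant against parental A498 and -0.82 (SE 0.08, adjusted p = 5.5e-07) in resistant A498 against parental 786-O. The resistant groups themselves were not called as different (0.04, 95% interval -0.13 to 0.22, adjusted p = 0.70). They were called, with resistant A498 higher, without resistant 786-O replicate 2 (0.19, adjusted p = 0.000184) and with GC and length trends removed (0.22, adjusted p = 0.0227). KRT8, the partner gene, lies beside KRT18 on the other strand and overlaps 17.1% of its exonic bases, so that both are uncertain where their reads could be exchanged. KRT8 was also lower, by a log2 fold change of -0.60 (SE 0.08, adjusted p = 6e-06) in resistant 786-O and -1.05 (SE 0.08, adjusted p = 9.7e-09) in resistant against parental A498.

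KRT19 (chr17:41523617-41528308, minus strand) encodes a type I keratin of simple and ductal epithelia. It had 191, 179 and 183 CPM in parental 786-O and 98.3, 131 and 104 CPM in resistant 786-O. Parental A498 had 11.7, 11.1 and 10.8 CPM, and resistant A498 69.1, 73.7 and 72.6 CPM. The 4 groups did not overlap, and parental A498 stood apart at the low end. KRT19 fell by 0.73 on the log2 scale (SE 0.08, adjusted p = 1.2e-06) in resistant 786-O and was 2.68 higher (SE 0.10, adjusted p = 2.3e-12) in resistant A498 than in parental A498. Set against parental 786-O, resistant A498 had a log2 fold change of -1.36 (SE 0.08, adjusted p = 2.3e-09). The 2 keratins of simple epithelia thus moved the same way in resistant 786-O and opposite ways in resistant against parental A498.

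**Figure D2:**
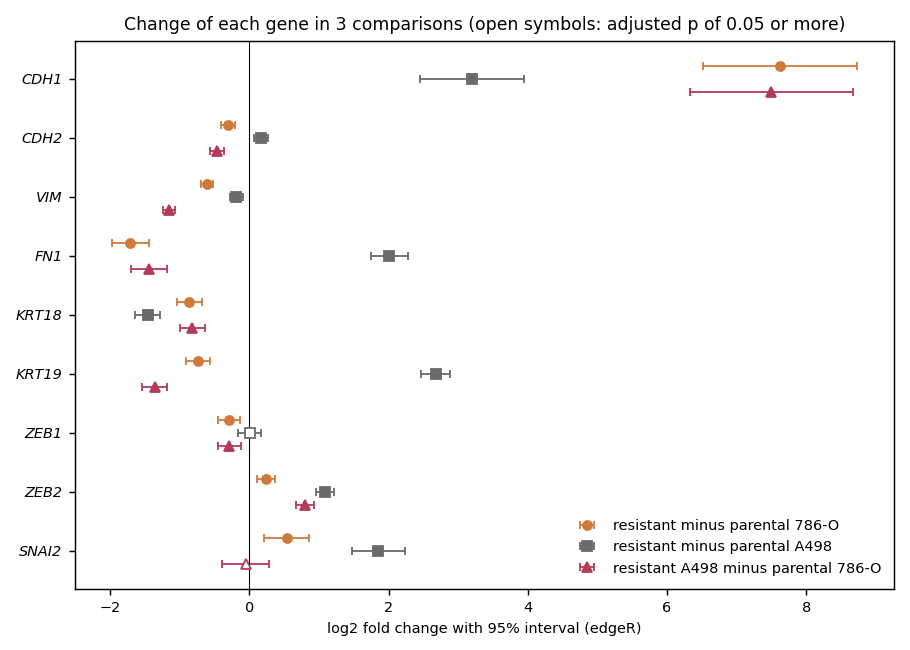
Log2 fold change (x axis, positive when higher in the first-named group) of the 9 genes tested in 3 comparisons, with bars for the 95% interval of the edgeR fit and open symbols for genes not called. FN1, KRT19 and CDH2 lie on opposite sides of 0 for resistant against parental 786-O and resistant against parental A498 (for CDH2 not with GC and length trends removed), and on the same side when resistant A498 is set against parental 786-O; the CDH1 values against parental 786-O rest on 1 count in parental 786-O and depend on the prior count.

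ZEB1 (chr10:31318495-31529814, plus strand) encodes a zinc finger repressor of CDH1. It was measured at 19.5, 21.4 and 20.2 CPM in parental 786-O and at 18.0, 16.7 and 15.3 CPM in resistant 786-O. Parental A498 had 16.1, 17.2 and 16.9 CPM and resistant A498 17.4, 17.4 and 15.4 CPM. Only parental 786-O stood above the rest, and the other 3 groups overlapped. The log2 fold change was -0.29 (SE 0.07, adjusted p = 0.003) in resistant against parental 786-O, but the call was lost when libraries were scaled by library size alone (-0.14, adjusted p = 0.104), and the sign turned with the GC and length trend removed (0.04, adjusted p = 0.645). In resistant against parental A498 it was not called (0.00, 95% interval -0.17 to 0.17, adjusted p = 0.97). With the same trends removed it was called in that comparison, as lower (-0.29, adjusted p = 0.00197), and also between the resistant groups, as lower in resistant A498 (-0.31, adjusted p = 0.0027).

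ZEB2 (chr2:144364364-144521057, minus strand) encodes the second factor of that family. Its 3 values were 24.3, 25.2 and 24.8 CPM in parental 786-O and 30.0, 27.2 and 30.6 CPM in resistant 786-O. In parental A498 they were 21.7, 19.3 and 19.9 CPM and in resistant A498 43.3, 42.3 and 43.98 CPM. Each group was separate from the others and resistant A498 was the highest. ZEB2 rose by 0.24 (SE 0.06, adjusted p = 0.0022) in resistant against parental 786-O, by 1.09 (SE 0.06, adjusted p = 4.9e-10) in resistant against parental A498 and by 0.80 (SE 0.06, adjusted p = 2.1e-08) in resistant A498 against parental 786-O, all on the log2 scale. ZEB2 and CDH1 were the 2 genes that were higher in the resistant group in all 3 comparisons, a direction that the filter fixed for CDH1.

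SNAI2 (chr8:48917598-48921740, minus strand) encodes Slug, a zinc finger repressor of the SNAI family. It had 34.7, 35.3 and 35.9 CPM in parental 786-O and 41.4, 71.1 and 41.3 CPM in resistant 786-O. The values were 8.98, 9.02 and 10.3 CPM in parental A498 and 35.0, 33.4 and 33.8 CPM in resistant A498. Replicate 2 of resistant 786-O stood far above the other two, resistant A498 overlapped with parental 786-O, and parental A498 was lowest. The log2 fold change of resistant against parental 786-O was 0.54 (SE 0.15, adjusted p = 0.0058), and without resistant 786-O replicate 2 it was 0.22 (adjusted p = 0.000147). Resistant A498 was 1.85 higher (SE 0.18, adjusted p = 2e-07) than parental A498 but was not called against parental 786-O (-0.05, 95% interval -0.39 to 0.28, adjusted p = 0.79).

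TWIST1 (chr7:19020991-19117636, minus strand) encodes a basic helix-loop-helix factor of EMT. It had 0 counts among the 418275329 counts of the 12 libraries. A count of 0 allows up to 3 counts per library, or 0.0613 to 0.144 CPM depending on depth, for counting error only. TWIST1 was not detectable at this depth and no comparison was possible.

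**Figure D3:**
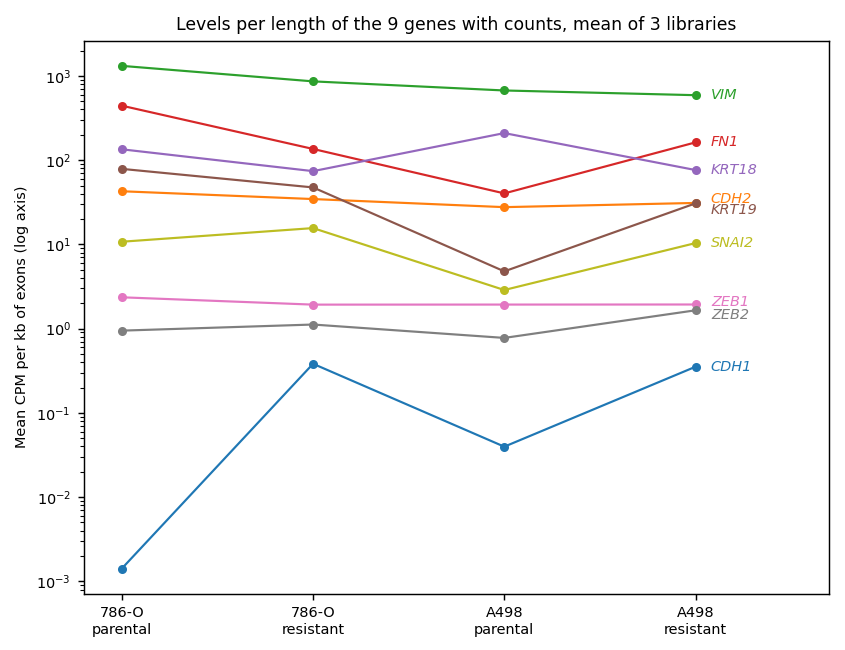
Mean level of 3 libraries in CPM per kb of exons (log axis) for the 9 genes with counts in the 4 groups; lines join the values of a gene and stand for no order of groups, and errors are not drawn. VIM was the highest and CDH1 the lowest in each group, the parental 786-O value of CDH1 rests on 1 count, and ZEB1 and ZEB2 lay between 0.776 and 2.36.

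Between genes, levels were compared per kb of exon, with the length taken as the union of all annotated exons of a gene. The order depends on that length, which was 26151 bases for ZEB2 and 8650 for ZEB1. In parental 786-O, ZEB2 was above ZEB1 in CPM (24.8 and 20.4) but below it per kb. On that scale the order in parental 786-O ran from VIM (1317 CPM per kb) over FN1 (444), KRT18 (135), KRT19 (78.8), CDH2 (42.8), SNAI2 (10.8), ZEB1 (2.36) and ZEB2 (0.947) to CDH1 (0.00142). In parental A498, KRT18 (210) stood above FN1 (40.3), and KRT19 (4.79) was below CDH2 (27.7). The 4 genes not called between the 2 resistant groups were FN1 (136 in resistant 786-O, 163 in resistant A498), KRT18 (74.1 and 76.3), ZEB1 (1.93 and 1.94) and CDH1 (0.383 and 0.353), of which FN1, KRT18 and ZEB1 were called under other settings. FN1 was called there with no filter (adjusted p = 2.81e-05) and with a replicate block (adjusted p = 0.0369), and the settings for KRT18 and ZEB1 are given with those genes. Of the 9 genes, 5 were called between resistant 786-O and resistant A498 (CDH2, VIM, KRT19, ZEB2 and SNAI2), where 46.1% of all genes were, with log2 fold changes, resistant A498 minus resistant 786-O, from -0.63 (KRT19) to 0.56 (ZEB2). Between the parental lines all 9 were called, with 74.2% of all genes called, though ZEB1 and ZEB2 were not with GC and length trends removed (adjusted p = 0.827 and 0.181), and the largest log2 differences there, parental 786-O minus parental A498, were KRT19 (4.04), FN1 (3.46) and SNAI2 (1.90) beside CDH1.

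Whether the change in resistant against parental A498 differed from that in resistant against parental 786-O was tested in the same fit. All 9 genes were called, where 68.3% of all genes were. The differences were largest for CDH1, FN1 and KRT19, at -4.42, 3.72 and 3.41 on the log2 scale, and smallest for ZEB1 (0.29, SE 0.11, adjusted p = 0.027). The CDH1 value rests on 1 count in parental 786-O and depends on the prior count, so its rank is uncertain. With GC and length trends removed, the calls of CDH2 (0.13, adjusted p = 0.0884) and KRT18 (-0.12, adjusted p = 0.327) were lost, and ZEB1 was called in the opposite direction (-0.33, adjusted p = 0.00819). The ZEB1 call was also lost with library size scaling, DESeq2 size factors and a minimum of 10 counts in every library. CDH1, ZEB2 and SNAI2 were called as higher in both pairs of groups and KRT18 and VIM as lower in both. By construction, the difference tested equals parental 786-O minus parental A498 plus resistant A498 minus resistant 786-O. Its parental part alone was -4.30 for CDH1, 3.46 for FN1, 4.04 for KRT19 and 0.29 for ZEB1. For ZEB2 that part was 0.28, beside a tested difference of 0.84.

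E-boxes are the sequence that ZEB and SNAI factors are known to bind. The letters CACCTG and CAGGTG, each the reverse complement of the other, were searched in promoter windows of 300 bases (250 before to 50 after each start) from RefSeq, GRCh38.p14. At least 1 was found in 20.6% of all 35116 windows, 2 or more in 3.49% and 5 or more in 0.094%. Windows were given for 5 of the 10 genes, VIM, FN1, ZEB1, ZEB2 and CDH2, and were not matched for CDH1, KRT18, KRT19, SNAI2 and TWIST1. FN1, VIM, ZEB2 and CDH2 held no match, and ZEB1 held 1 and 3 matches in 2 of its 7 windows. Among the other epithelial genes described below that had a window, CRB3 held 5 matches and DSP 2, JUP held 2 in 1 of its 2 windows, SPINT1 held 1 in 1 of its 2 windows and ELF3 held 1. CLDN1, CLDN2, CTNNB1, NECTIN3, KLF4 and KLF5 held none, nor did KRT8. Among the filament, mesenchymal and EMT genes described below that had a window, SYNM held 1 match and LOX 1 in some of its windows. TNC, POSTN, LEF1, RUNX2 and TCF4 held none. The windows of FN1, which changed the most among the 5 genes with a window, and of CRB3 and DSP, junction genes that were higher in resistant 786-O, are printed 5′ to 3′ with the matches in capitals. FN1 lies on the minus strand at chr2:215436019-215436318, CRB3 on the plus strand at chr19:6464021-6464320 and DSP on the plus strand at chr6:7541421-7541720.
FN1: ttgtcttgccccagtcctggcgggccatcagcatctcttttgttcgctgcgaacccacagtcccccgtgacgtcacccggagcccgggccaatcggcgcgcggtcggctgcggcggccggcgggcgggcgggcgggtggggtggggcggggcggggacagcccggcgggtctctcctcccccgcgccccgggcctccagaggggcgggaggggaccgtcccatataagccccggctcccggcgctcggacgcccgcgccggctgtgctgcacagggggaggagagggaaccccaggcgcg
CRB3: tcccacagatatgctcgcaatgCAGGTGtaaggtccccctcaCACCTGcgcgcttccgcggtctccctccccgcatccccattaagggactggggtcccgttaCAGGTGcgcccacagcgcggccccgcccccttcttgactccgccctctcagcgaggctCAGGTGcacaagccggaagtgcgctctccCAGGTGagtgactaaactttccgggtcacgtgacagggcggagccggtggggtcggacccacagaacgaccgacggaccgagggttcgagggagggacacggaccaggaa
DSP: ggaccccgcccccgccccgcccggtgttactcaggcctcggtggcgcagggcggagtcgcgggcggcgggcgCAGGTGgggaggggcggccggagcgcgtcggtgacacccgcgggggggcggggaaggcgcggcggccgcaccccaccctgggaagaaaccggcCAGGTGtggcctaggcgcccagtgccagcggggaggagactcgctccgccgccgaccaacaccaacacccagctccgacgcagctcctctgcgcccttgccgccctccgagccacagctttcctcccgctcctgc
CRB3 was higher in both resistant groups and DSP was higher in resistant 786-O alone of the 2 labelled pairs. The junction windows printed are ones with matches and do not stand for junction genes as a set. A match describes letters in the window and is not evidence of binding, and no factor was measured on these promoters.

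The other genes of the epithelial programme were taken from lists of junction, keratin and regulator genes. In resistant 786-O, several junction genes were higher than in parental 786-O. JUP (plakoglobin, which links cadherins and desmosomes to the cytoskeleton) was at 2.49 to 3.13 CPM in parental 786-O and 37.3 to 40.3 CPM in resistant 786-O (log2 fold change 3.83, SE 0.09, adjusted p = 6.6e-14). DSP (desmoplakin) was at 0.71 to 0.842 CPM and 10.3 to 16.7 CPM (4.12, SE 0.18, adjusted p = 5.5e-11). PKP2, a desmosomal plaque protein, was higher by 1.79 and CRB3, a protein of apical polarity, by 2.11. CTNNB1 (beta-catenin) and CLDN1 (a claudin of tight junctions) were lower, by log2 fold changes of -0.68 and -0.61.

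By list, 3 of 10 cadherin partners were called as higher and 4 as lower in resistant 786-O, 6 and 4 of 17 tight junction genes, and 4 and 1 of the 7 desmosome genes that passed the filter out of 9. The median log2 fold changes were -0.09, 0.35 and 0.80. For these and the lists that follow, 35.0% of all genes tested were higher and 33.5% lower, with a median of 0.03. Of the other epithelial markers, 9 of 11 passed, with 5 higher and 2 lower. Among these SPINT1, an inhibitor of epithelial serine proteases, rose from 5.77 to 6.19 CPM in parental 786-O to 96.7 to 117 CPM in resistant 786-O (log2 fold change 4.16, SE 0.10, adjusted p = 1.7e-13), and EPCAM, an epithelial adhesion molecule, fell from 5.35 to 5.50 CPM to 0.592 to 0.765 CPM (-3.04, SE 0.15, adjusted p = 2.9e-10). Of the other keratins, 6 of 11 passed, with 4 higher and 1 lower. KRT7, the keratin of ductal epithelia, had 0.569 to 0.71 CPM in parental 786-O and 7.35 to 8.70 CPM in resistant 786-O (3.60, SE 0.12, adjusted p = 3.4e-12). The regulators of the epithelial state, of which 8 of 12 passed, had 5 higher and 2 lower, with a median of 1.93 as fitted and 1.18 when ESRP1 and OVOL2, at or under 3 counts in every parental 786-O library, are set to their bound. ELF3, an epithelial ETS factor, was higher by 2.53 and KLF4 by 1.54. ELF3 was lower in resistant 786-O replicate 2 (17.4 CPM) than in replicates 1 and 3 (49.0 and 49.7 CPM).

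In resistant against parental A498, the junction genes were divided. JUP fell from 87.6 to 97.7 CPM in parental A498 to 20.1 to 23.1 CPM in resistant A498 (-2.10, SE 0.07, adjusted p = 1.1e-12), and DSP (-1.51) and PKP3, another desmosomal plaque protein (-2.05), were also lower. CLDN2, a claudin of leaky epithelia such as the proximal tubule, was at 2.74 to 3.35 CPM in parental A498 and 39.4 to 41.2 CPM in resistant A498 (3.69, SE 0.22, adjusted p = 8.6e-10). CLDN2 was near the parental A498 level in parental 786-O and resistant 786-O too, at 1.53 to 4.20 CPM. CRB3 (3.41) and the nectin NECTIN3 (1.14) were higher as well. SPINT1 had 8, 0 and 5 counts in the parental A498 libraries and 25.3 to 26.4 CPM in resistant A498, and the related inhibitor SPINT2 rose from 6.70 to 7.48 CPM to 76.4 to 78.6 CPM (3.45, SE 0.09, adjusted p = 4.2e-14). The fitted log2 fold change of SPINT1, 7.33, was 7.92 without parental A498 replicate 1, which held 8 of the 13 counts.

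Of the cadherin partners, 6 of 10 were called as higher and 2 as lower in resistant against parental A498. The tight junction genes had 8 higher and 7 lower of 17, the desmosome genes 4 and 2 of 7, and the other epithelial markers 5 and 2 of 9. The other keratins had 1 higher and 4 lower of 6, and KRT15 fell by 3.22 on the log2 scale. The epithelial regulators had 1 higher and 4 lower of 8, and ELF3 (-0.87) and KLF5 (-0.76) were among the lower. Medians were 0.20, 0.32, 0.41, 0.98, -0.73 and -0.59 in the same order. Beside these lists, 36.3% of all genes tested were higher and 36.4% lower, with a median of 0.00. Among the regulators, OVOL2 had 15, 12 and 17 counts in parental A498 and 0 in each resistant A498 library. It passed the filter only through parental A498, so its direction in this pair was fixed by the filter. JUP, DSP and ELF3 were thus called as higher in resistant 786-O and as lower in resistant against parental A498, and the tests of the difference gave -5.93, -5.63 and -3.40 on the log2 scale (adjusted p = 5e-15, 1e-11 and 1.2e-06). Set against parental 786-O instead, resistant A498 was higher for JUP (2.97), DSP (4.44) and ELF3 (3.29).

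**Figure D4:**
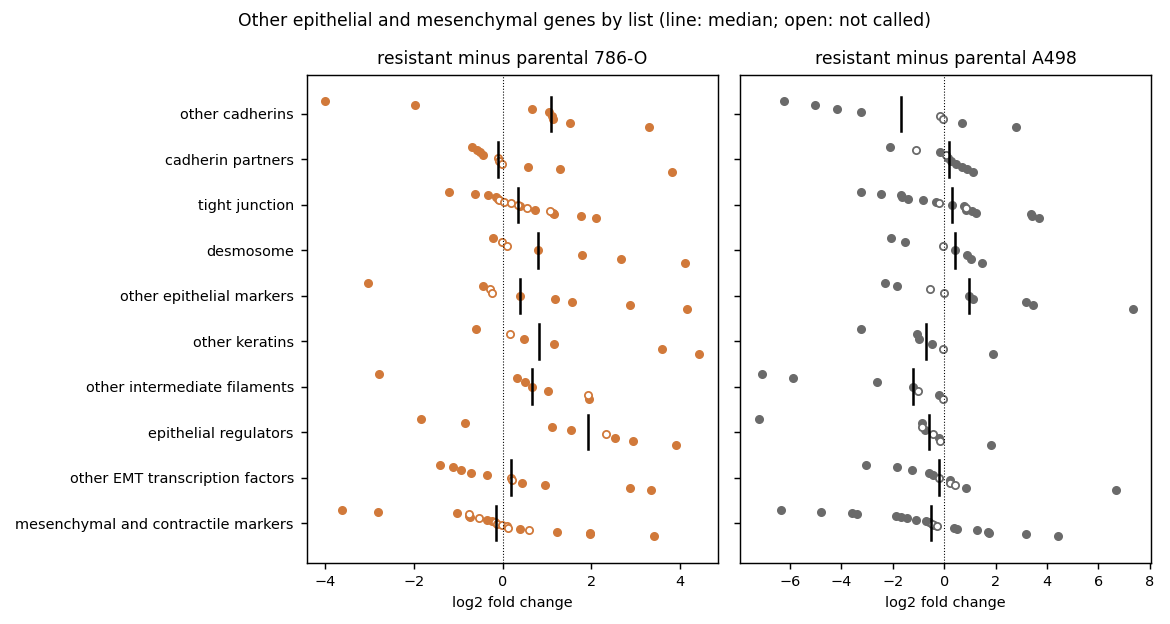
Log2 fold change (x axis) of the genes that passed the filter in the 10 other lists of epithelial and mesenchymal genes, for resistant against parental 786-O (left) and resistant against parental A498 (right, wider axis); filled points were called, open points were not, and the vertical line is the list's median as fitted. Every list held genes on both sides of 0 in both comparisons, except the other intermediate filaments in resistant against parental A498, all below 0. Of these, DES passed the filter only through parental A498.

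The other cadherins and intermediate filaments gave 6 higher and 2 lower of the 8 and 5 higher and 1 lower of the 7 that passed, in resistant against parental 786-O. All genes tested gave 35.0% higher and 33.5% lower there, and 36.3% and 36.4% in resistant against parental A498. Of the cadherins higher in resistant 786-O, CDH3, CDH4, CDH11 and CDH17 had means of at most 1.27 CPM in both 786-O groups. The others were CDH16 (means of 1.98 CPM in parental and 5.64 in resistant 786-O) and CDH24 (11.5 and 23.8). CDH13 (T-cadherin) went from 36.4 to 38.4 CPM in parental 786-O to 1.43 to 3.80 CPM in resistant 786-O (-4.00, SE 0.22, adjusted p = 6.4e-10), and CDH6, the kidney cadherin of the proximal tubule, was lower by a log2 fold change of -1.98. Of the filaments and their linkers, SYNM was higher by 0.66 and PLEC by 0.51 on the log2 scale, though PLEC turned to -0.29 (adjusted p = 0.000723) after removal of those trends. The median of the intermediate filament list was 0.66 as fitted and 0.51 with DES at its bound. In resistant against parental A498, 2 cadherins were higher and 4 lower, and CDH17 (13.3 to 17.3 CPM in parental A498, 0.157 to 0.239 CPM in resistant A498) and CDH11 (15.7 to 17.4 CPM and 0.783 to 1.05 CPM) were lower by log2 fold changes of -6.25 and -4.16. No filament gene was higher and 5 of 7 were lower, among them NEFM, a neurofilament (52.5 to 56.7 CPM in parental A498, 0.336 to 0.479 CPM in resistant A498), and GFAP (-2.62). DES had 57, 39 and 56 counts in parental A498 and 2, 0 and 0 in resistant A498. It passed the filter only through parental A498, so its direction in this pair was fixed by the filter.

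The other EMT transcription factors had no common direction. Of the 11 of 15 that passed, 4 were higher and 5 lower in resistant 786-O, and 3 were higher and 5 lower in resistant against parental A498. The shares over all genes tested were 35.0% higher and 33.5% lower in the first comparison, and 36.3% and 36.4% in the second. SNAI1 (Snail), the family partner of SNAI2, was at 11.1 to 11.3 CPM in parental 786-O and 4.92 to 5.37 CPM in resistant 786-O (log2 fold change -1.11, adjusted p = 2.1e-09). It was at 43.4 to 46.2 CPM in parental A498 and 5.07 to 5.59 CPM in resistant A498 (-3.06, SE 0.07, adjusted p = 1.7e-14). SNAI1 and SNAI2 thus moved in opposite directions in both labelled pairs. LEF1, a mediator of Wnt signalling, was higher by 2.88 and RUNX2 lower by a log2 fold change of -1.40 in resistant 786-O. TCF4, a factor that binds E-boxes, had 6, 0 and 5 counts in the parental A498 libraries against 13.3 to 14.4 CPM in resistant A498, and 19.0 to 20.7 CPM in parental 786-O. TWIST2, the close relative of TWIST1, also had no count in any library.

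Mesenchymal and contractile markers, 20 of 22 of which passed, gave 5 higher and 7 lower in resistant 786-O (median log2 fold change -0.15) and 7 higher and 11 lower in resistant against parental A498 (median -0.53). Among all genes tested, 35.0% were higher and 33.5% lower in the first comparison (median 0.03). In the second, 36.3% were higher and 36.4% lower (median 0.00). LOX, which crosslinks collagen, was at 9.78 to 10.6 CPM in parental 786-O and 0.531 to 1.28 CPM in resistant 786-O (-3.62, SE 0.18, adjusted p = 2.3e-10), and at 16.9 to 17.9 CPM in parental A498 and 0.587 to 0.671 CPM in resistant A498 (-4.79, SE 0.21, adjusted p = 2.1e-11). TNC, a matrix glycoprotein, was lower in resistant 786-O by a log2 fold change of -2.81 (adjusted p = 3.2e-05), and replicate 2 held 55.1 CPM where replicates 1 and 3 held 10.7 and 11.5 CPM. Without replicate 2 the value was -4.02. POSTN (periostin) was at 5.44 to 6.28 CPM in parental A498 and had 1 or 2 counts in each resistant A498 library. It passed the filter only through parental A498, so its direction in this pair was fixed by the filter. The summed level of 6 fibroblast markers was 50.6 to 62.1 CPM in parental A498, nearly all of it COL1A1, and 6.49 to 21.5 CPM in the other groups, where LUM (lumican, a matrix proteoglycan) was the highest of them. LUM had means of 4.45 CPM in parental 786-O, 7.42 in resistant 786-O and 16.2 in resistant A498, and 1, 0 and 1 counts in the parental A498 libraries, and was called as higher in both labelled pairs (adjusted p = 1.9e-05 and 8.1e-14). COL1A1 was higher in resistant than in parental 786-O (0.49, adjusted p = 0.0017) and lower in resistant than in parental A498 (-3.90, adjusted p = 6.1e-14). Of the other markers, COL1A2 and COL3A1 were at 0 in all parental A498 libraries, PDGFRA in parental 786-O and DCN in resistant A498. Of 6 endothelial markers, EGFL7 made up nearly all of the sum, which was 15.0 to 15.6 CPM in parental 786-O and 42.8 to 77.1 CPM in the other groups, and VWF and KDR were at or near 0. The part of these genes in the differences was not tested.

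For the 4 genes whose group means spanned more than 2 on the log2 scale, the genes with the most similar pattern were sought among those of at least 5 CPM, by the mean absolute difference of centred log2 CPM over the 12 libraries. For CDH1 these were IFI6 (0.417), APBA1 (0.471) and TMEM98 (0.50). The log2 CPM used here have a prior count of 2, which sets the CDH1 value in parental 786-O, where only 1 count was recorded. The likeness of these genes to CDH1 is therefore uncertain in that group. IFI6, an interferon-inducible gene, had group means of 19.4 CPM in parental 786-O, 675 in resistant 786-O, 126 in parental A498 and 724 in resistant A498. For FN1 they were SERPINA1 (0.180), INPP1 (0.203) and S100A16 (0.239). SERPINA1, which encodes alpha-1-antitrypsin, had means of 86.1, 27.9, 6.42 and 24.2 CPM in the same order of groups. For KRT19 they were ABCC9 (0.128), PLEKHO1 (0.157) and ARHGDIB (0.162), each at 0.854 to 1.47 CPM in parental A498 and at 6.34 CPM or more elsewhere. For SNAI2 they were SHC3 (0.134), AKR7A2 (0.145) and MME (0.148), the last of which encodes the brush border peptidase neprilysin, with means of 17.4, 25.6, 5.53 and 20.1 CPM.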

How the data were processed

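mRNA libraries of parental and sunitinib-resistant 786-O and A498 cells, 3 per group, were re-analysed. The authors deposited raw gene counts, without normalization. According to the methods and the submitters' processing notes, the authors trimmed paired reads with Trimmomatic 0.36.6, aligned them to GRCh38 with HISAT2 2.1.0 and counted exons with featureCounts 1.6.3 over a GENCODE annotation. A stranded counting mode is stated, but the counts do not separate strands. Sequencers of more than 1 kind were used.

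Genes (45478, of which 45283 have a symbol) were filtered with filterByExpr (19929 left), normalized by TMM and fitted in 1 quasi-likelihood model with 4 group means in edgeR 4.0.16 (R 4.3.3). P-values were Benjamini-Hochberg adjusted over all genes tested (threshold 0.05), and log2 fold changes use a prior count of 0.125. A gene that passed the filter only through the groups where it was high could differ from the other groups in 1 direction alone. Among such genes were CDH1, DES, OVOL2 and POSTN. Positions and exon lengths come from a GENCODE annotation of the same build, and promoters from RefSeq. The code was tested on simulated data. Alternatives were library size scaling, DESeq2 1.42.0 size factors and Wald test, omission of the filter, 10 counts or more required in each library, fits of the compared groups alone, a replicate block, removal of GC and length trends, a minimum log2 fold change of 1, a prior count of 2, the study's own per-gene test of raw counts, and each library left out. Those for the other lists and their named genes were chosen after seeing the data.

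The 10 genes and the lists were chosen with earlier results of these data known. All 10 genes are named. From each other list, the text names up to 2 genes per labelled pair with the largest log2 fold change among genes called, with at least 5 CPM in the higher group and libraries that do not overlap, and antisense partners with counts. CLDN2 in the 786-O groups, TWIST2, LUM, COL1A1, ESRP1, OVOL2 and DES were named after their values were seen. So were CDH3, CDH4, CDH11, CDH16, CDH17 and CDH24 in the 786-O groups. Intervals and floors cover counting error only.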

Additional observations from a re-analysis of the deposited data

Results flagged for a closer look

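The change in resistant against parental A498 and that in resistant against parental 786-O differed for each of the 9 genes tested, by the test of the difference itself in edgeR's quasi-likelihood fit (adjusted p under 0.05, 3 libraries per group). The difference, as the first change minus the second on the log2 scale, was -4.42 for CDH1, 0.47 for CDH2, 0.43 for VIM, 3.72 for FN1, -0.60 for KRT18, 3.41 for KRT19, 0.29 for ZEB1, 0.84 for ZEB2 and 1.32 for SNAI2. Over all genes tested, 68.3% differed by the same test. With GC and length trends removed, CDH2 (0.13, adjusted p = 0.0884) and KRT18 (-0.12, adjusted p = 0.327) were no longer called and ZEB1 was called with the opposite sign (-0.33, adjusted p = 0.00819). For CDH2, FN1 and KRT19 the 2 changes had opposite signs, which for CDH2 did not hold with GC and length trends removed. The CDH1 value rests on 1 count in parental 786-O and was -6.12 without parental 786-O replicate 2, the library that holds it. The resistant A498 libraries were closer to resistant 786-O and parental 786-O than to parental A498, as given above, and their part in these differences was not tested. With resistant groups this alike, the test cannot tell unlike changes in the 2 pairs from the difference between the parental lines.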

How the results depend on the processing

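The number of the 9 genes called stayed within 1.5 times of that reported under every alternative run but a minimum log2 fold change of 1. With that minimum the counts were 2 for resistant against parental 786-O, 4 for parental 786-O against parental A498, 4 for resistant A498 against parental 786-O, 0 for resistant A498 against resistant 786-O, 5 for resistant 786-O against parental A498 and 4 for the difference between changes, which follows from the stricter rule. No count of the other lists moved by over 1.5 times. Of the single-gene values under an alternative, 1492 kept direction and call, 61 lost the call, 8 gained it and 41 changed sign.

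Most sign changes were of ZEB1 where it was not called. For resistant against parental A498 ZEB1 gave -0.0159 with DESeq2 size factors, -0.0155 in DESeq2's Wald test, -0.0206 with at least 10 counts in every library, -3e-04 with only these groups fitted, -0.29 with the GC and length trend removed and -0.18 in the raw count test. For resistant 786-O against parental A498 ZEB1 gave -0.0311 with DESeq2 size factors, -0.0303 in the Wald test and -0.0116 with the count minimum. For resistant A498 against resistant 786-O it gave -0.0039 with no filter, -0.009 with the count minimum, -0.31 with the trend removed and -0.92 in the raw count test. With the trend removed ZEB1 was also 0.036 for resistant against parental 786-O, -0.0175 for parental 786-O against parental A498 and -0.33 for the difference between changes. CDH2 in resistant against parental A498 was -0.088 with the trend removed and -0.0079 in the raw count test. SNAI2 in resistant A498 against parental 786-O was 0.10 with library size alone and 0.0635 with the trend removed. PLEC in resistant against parental 786-O was -0.29 with the trend removed. The raw count test, which does not correct for depth, also turned resistant A498 against resistant 786-O for FN1 (-0.65), KRT18 (-0.87) and ZEB2 (-0.36). The cause of the other changes was not tested.

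Replicate numbers did not pair the libraries: deviations of same-numbered libraries correlated by -0.0862 to 0.0166. With the replicate block, the number of genes called was 9 for resistant against parental 786-O, 8 for resistant against parental A498 and 6 for resistant A498 against resistant 786-O, ZEB1 in resistant 786-O against parental A498 was -0.0015 and FN1 in resistant A498 against resistant 786-O became called (0.28, adjusted p = 0.0369). With block and trend removal together, ZEB1 was 0.0357 for resistant against parental 786-O, -0.29 for resistant against parental A498, -0.0189 for parental 786-O against parental A498, -0.31 for resistant A498 against resistant 786-O and -0.33 for the difference, CDH2 in resistant against parental A498 -0.0873 and SNAI2 in resistant A498 against parental 786-O 0.0668.

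With 1 library left out in turn, sign changes were found for ZEB1 in resistant against parental A498 (-0.0214 to 0.0922), resistant 786-O against parental A498 (-0.0323 to 0.0855) and resistant A498 against resistant 786-O (-0.049 to 0.069), and for KRT18 (-0.0271 to 0.19) and CDH1 (-0.26 to 0.0002) in resistant A498 against resistant 786-O, none of them called in the full fit. The call of ZEB1 was lost in resistant A498 against parental 786-O without resistant A498 replicate 3 (-0.20, adjusted p = 0.0527), and it was called in 7 of 12 fits of the difference. The number of genes called ranged from 4 to 7 for resistant A498 against resistant 786-O, from 7 to 8 for resistant A498 against parental 786-O and from 8 to 9 for the difference, and did not move in the other 4 comparisons. With so few counts, depth limits CDH1 in parental 786-O and parental A498 and TWIST1 everywhere.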
